A study of Mus musculus with 12 samples.

Results

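The response to antigen was described in bone marrow-derived mast cells (BMMCs) labelled *Elk4* heterozygous (HZ). The libraries were chosen by their labels as the 2 stimulated and the 2 unstimulated HZ libraries, 4 of the 12 in the series. The BMMCs had been grown from bone marrow in IL-3 and SCF for 4 to 8 weeks, and more than 80% of the cells carried both KIT and FcϵRI on their surface. The donor mice, of both sexes and 6 to 12 weeks old, came from a strain with a constitutive *Elk4* deletion (C57BL/6N background), and littermates served as controls. Stimulated cells were sensitized overnight with 0.5 µg/ml anti-DNP IgE and exposed for 1 h to 100 ng/ml DNP-HSA. Unstimulated cells are labelled untreated, and the labels do not say whether they received IgE. The other 8 libraries, 4 labelled wild type (WT) and 4 labelled knockout (KO) with the same treatments, served for comparison. The deletion is not limited to 1 cell type, so any cell of a culture can carry it. Nothing in the labels says that the replicates of a group came from separate mice or cultures, so the p-values measure only the spread between these samples, which may be technical.

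FcϵRI is the high-affinity IgE receptor of mast cells. When antigen links receptor-bound IgE, the kinases LYN and SYK start calcium entry and the MAP kinase cascades, granules are released, and immediate early genes are transcribed within minutes. Their products, of the FOS, JUN, EGR and NR4A families, act with NFAT and NF-κB on cytokine and chemokine genes. ELK4 is a ternary complex factor, an ETS protein that binds with SRF at immediate early promoters and is phosphorylated by MAP kinases.

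The 4 HZ libraries held 30550159 to 35531667 counts, and all 12 held 29697958 to 35531667. Of 16234 genes in the table, 12208 were tested. Levels are given as CPM, the depth-normalised read count after TMM scaling, which is not divided by gene length, with both libraries of a group in the order of their replicate numbers. A gene was called at an adjusted p below 0.05 and a change of at least 2-fold, by the quasi-likelihood F test of edgeR, adjusted by the method of Benjamini and Hochberg over the 12208 genes, and every adjusted p below comes from it unless another tool is named. The SE printed with a log2 change is its absolute value divided by the square root of its F statistic. It is not a separately estimated standard error, and it can be too small where a large change starts from few counts. The unstimulated HZ libraries stood farther from the stimulated libraries of their genotype than was so in WT and KO. The Spearman correlation over the 12208 genes, which are no replicates of one another, of stimulated with unstimulated libraries was 0.955 to 0.956 in HZ, 0.978 in WT and 0.976 in KO. Replicates correlated at 0.998 in all 6 groups.

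*Elk4*, the targeted gene, did not follow the genotype labels. It stood at 93.2 and 86.0 CPM in unstimulated and 65.2 and 63.7 CPM in stimulated HZ libraries, against 73.2 and 78.3 CPM in unstimulated WT and 69.7 and 63.5 CPM in unstimulated KO. A count over the whole gene cannot show whether a deleted exon is missing. Within HZ, the stimulated *Elk4* values lay below both unstimulated ones, a log2 change of -0.48 (SE 0.06, adjusted p = 1.6e-09 by edgeR) that did not reach the 2-fold threshold. The relatives of *Elk4* were not called either. *Elk1* changed by 0.36 (SE 0.08) and *Elk3* by -0.54 (SE 0.08) on the log2 scale.

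The cells carried the defining transcripts of mast cells. All 12 mast cell markers in the table were detected, with *Kit* at 4979 and 4846 CPM before and 4229 and 4150 CPM after stimulation and *Fcer1a* at 4654 and 4868 before and 4564 and 4628 after. The summed level of the 12 markers was 58856 and 60256 CPM before and 51027 and 51772 CPM after stimulation. Before stimulation the HZ sum was 121% of WT and 111% of KO, and after stimulation 96.0% and 96.2%. Of the 12, 11 were lower in HZ at an adjusted p below 0.05 (edgeR), as were 31.6% of all genes, but *Ndst2* alone fell past the 2-fold threshold and *Hdc* alone rose past it. In WT 5 were lower and 6 higher at that adjusted p (22.9% and 22.4% of all genes, edgeR). In KO 4 were lower and 3 higher (20.5% and 20.4%). In bulk RNA, fewer cells of a type and less RNA per cell cannot be told apart. Of 16 macrophage markers, 2 were at 0 in every HZ library, and the summed level was 42.5 and 44.4 CPM before and 77.0 and 74.4 CPM after stimulation. *Cd68*, a lysosomal protein gene, stood at 20.7 and 20.3 CPM before and 56.6 and 54.3 CPM after. Of 9 macrophage markers tested, 3 rose and 2 fell in HZ. Besides *Cd68*, the receptor genes *Cd14* (16 and 9 counts before, 89 and 85 after) and *Fcgr1* (19 and 9, then 36 and 26) rose. *Ccr2*, a chemokine receptor gene, fell from 77 and 100 to 19 and 9 counts. *Cd163*, a scavenger receptor gene, fell from 74 and 57 to 28 and 16 counts, and without stimulated HZ replicate 2 only 1 of the 9 was called lower. *Lyz2* went from 316 and 375 to 235 and 209 counts and was not called. The complement gene *C1qa* had no count in HZ, and *Csf1r* had 0 to 3 counts. The sums of neutrophil markers (0.541 to 1.64 CPM), lymphoid and dendritic markers (3.48 to 4.18 CPM) and stromal markers (0.335 to 0.812 CPM) were low throughout. The part of these markers in the results below was not tested. The basophil and eosinophil list held 5034 to 5547 CPM and the erythroid and megakaryocyte list 2359 to 3386 CPM, through *Fcer1a*, *Cd200r3*, *Itga2b*, *Gp1ba* and *Vwf*. The red cell gene *Hba-a1* had 0 to 8 counts and the platelet gene *Pf4* 0 to 4. *Hbb-bt*, another red cell gene, had 34 and 13 counts before and 45 and 18 after. *Epor*, the erythropoietin receptor gene, was the only member of that list called, from 200 and 204 to 44 and 42 counts. It fell more in HZ than in WT or KO.

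One hour of antigen raised 857 genes (7.02% of those tested) and lowered 889 (7.28%) in HZ cells. Of the genes that rose, 289 rose at least 4-fold and 125 at least 16-fold. Of those that fell, 236 fell at least 4-fold and 22 at least 16-fold. In the same fit, 453 genes rose (3.71%) and 373 fell (3.06%) in WT, and 455 rose (3.73%) and 352 fell (2.88%) in KO. The 857 genes that rose in HZ included 340 of the WT genes, 39.7% of the HZ list and 75.1% of the WT list. They included 349 of the KO genes, 40.7% of the HZ list and 76.7% of the KO list. All 3 genotypes shared 316 genes that rose and 192 that fell. Of the HZ calls, 484 of the genes that rose (56.5%) and 567 of those that fell (63.8%) were called in that direction in neither WT nor KO. Scaling by library totals in place of TMM moved the median log2 change of all genes by -0.23 in HZ, -0.31 in WT and -0.29 in KO. With that scaling the HZ response had 604 genes higher and 1351 lower, so that the genes that rose made up 30.9% of the calls in place of 49.1%.

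**Figure D1:**
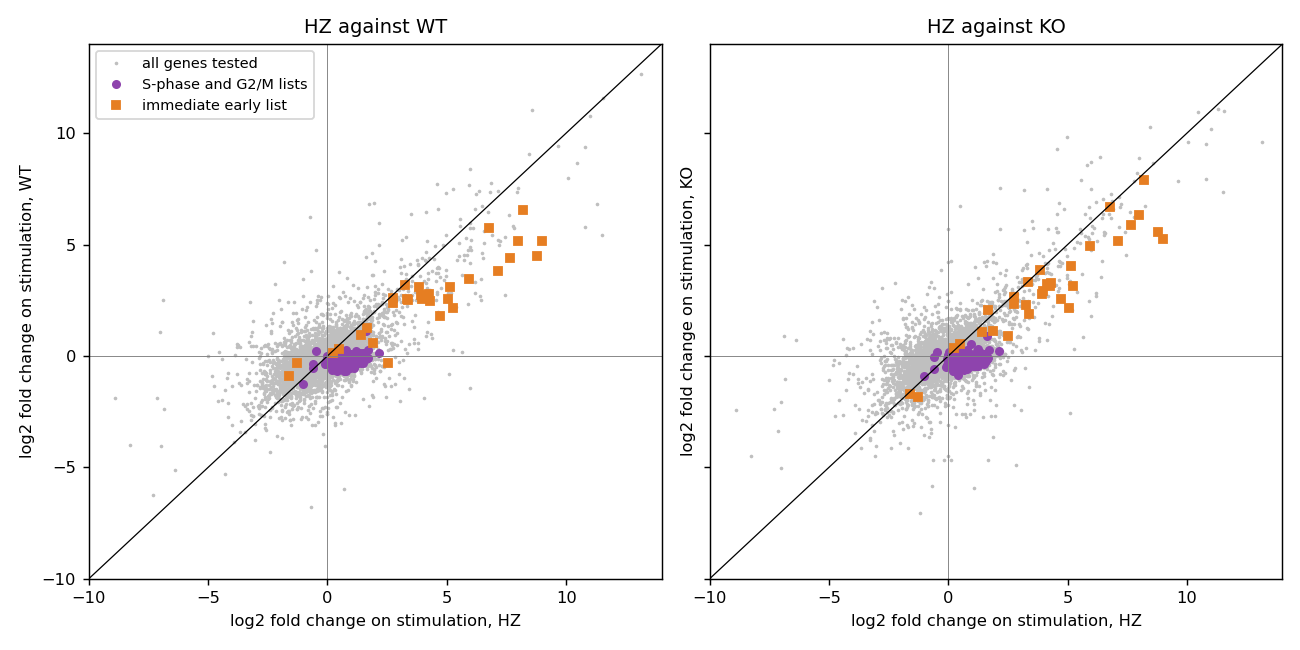
Log2 fold change on stimulation in HZ (x axis) against that in WT (left, y axis) and KO (right, y axis) for the 12208 genes tested, each grey point a gene, with the line of equal change in black. Genes of the immediate early list (squares) mostly lie below the line at positive values, and genes of the S-phase and G2/M lists (circles) lie near 0 in WT and KO and mostly above 0 in HZ.

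The 10 genes with the largest fitted increases in HZ, an order that depends on the prior count where a group is at 0, were *Csf2*, *Il31*, *Ccn1*, *Cxcl2*, *Il3*, *Olr1*, *Tnf*, *Rasl11b*, *Ptgs2* and *Ism1*. *Csf2*, which encodes the growth factor GM-CSF, had no count in either unstimulated HZ library and reached 33.9 and 35.9 CPM, at least 787-fold higher against a floor of 3 counts over the group. In WT *Csf2* was at least 562-fold higher, and in KO, with 2 counts before stimulation, the ratio was 883 (95% counting interval 244 to 7295). *Il31*, a cytokine known for itch, went from 0 in both libraries to 10.7 and 12.5 CPM, at least 260-fold higher. *Il3*, a mast cell growth factor, went from 0 to 6.76 and 9.34 CPM, at least 180-fold higher. In none of the 10 did stimulated and unstimulated libraries overlap, as the naming rule required (40.1% of all genes were higher without overlap). *Tnf*, the classical inflammatory cytokine, stood at 1.99 and 2.94 CPM before and 4258 and 4466 CPM after, a log2 change of 10.79 (SE 0.05, adjusted p = 3.2e-65 by edgeR). Leaving out 1 HZ library at a time gave log2 changes of *Tnf* from 10.53 to 11.10, a wider range than that SE. *Ptgs2*, the inducible cyclooxygenase of prostaglandin synthesis, went from 0.605 and 1.33 to 1026 and 1032 CPM. *Cxcl2*, a neutrophil attractant, went from 0 to 9.54 and 10.1 CPM. *Olr1*, a receptor for oxidized LDL, had 1 count in the unstimulated HZ libraries together and 34.9 and 31.7 CPM after stimulation. In WT it stood at 5.37 and 5.29 CPM before and 300 and 295 CPM after, so both stimulated HZ libraries lay below both stimulated WT libraries.

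Immediate early transcription factors rose in HZ. Of 31 tested, 27 rose and 1 fell, with a median log2 change of 3.96, against a median of 0.00 over all genes. In WT 24 rose with a median of 2.55, and in KO 26 rose and 1 fell with a median of 2.89. Their summed level was 3648 and 3682 CPM in unstimulated and 51744 and 52527 CPM in stimulated HZ libraries, a ratio of 14.2 between the means. That ratio was 6.09 in WT and 8.93 in KO. Before stimulation the HZ sum was 41.3% of the WT sum and 59.0% of the KO sum. After stimulation it was 96.6% of WT and 94.0% of KO. In unstimulated libraries 18 of the 31 genes were lower in HZ than in WT (5.32% of all genes were) and 11 were lower than in KO (1.29% of all genes). None was higher than in WT or KO, where 3.83% and 2.06% of all genes were. In stimulated libraries 1 was higher and 1 lower than in WT (1.96% and 2.55% of all genes), and none was called different from KO (1.37% and 0.729%). These contrasts share libraries with the HZ response and are given side by side with it.

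*Fos*, the founding AP-1 subunit, shows the pattern. It was named, like *Fosb*, *Jun*, *Klf2* and *Klf10*, after its values had been seen. *Fos* stood at 2.42 and 2.73 CPM in unstimulated HZ, below 15.7 and 14.3 CPM in WT and 6.75 and 5.89 CPM in KO. After stimulation it stood at 651 and 662 CPM in HZ, 538 and 548 CPM in WT and 516 and 511 CPM in KO. The log2 change was 7.99 (SE 0.06) in HZ, 5.18 in WT and 6.34 in KO, and the HZ response exceeded that of WT by 2.81 (SE 0.10, adjusted p = 8.1e-28 by edgeR) and that of KO by 1.65 (SE 0.11, adjusted p = 1.1e-16 by edgeR). *Fosb* went from 76.0 and 76.2 to 2833 and 2921 CPM in HZ, while unstimulated WT libraries already held 635 and 626 CPM. *Jun*, the partner of FOS, went from 69.5 and 73.7 to 1868 and 1920 CPM, with 429 and 420 CPM in unstimulated WT and 349 and 349 CPM in unstimulated KO. *Junb* rose from 197 and 194 to 2781 and 2833 CPM, and the difference of its response from that of KO did not pass the test (difference 0.01, SE 0.04, adjusted p = 0.91 by edgeR).

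EGR zinc finger factors link MAP kinase signalling to later transcription. *Egr3* rose from 614 and 605 to 11938 and 11898 CPM in HZ. *Egr1* rose from 179 and 176 to 6152 and 6264 CPM. *Egr2* rose from 20.8 and 22.95 to 3034 and 3075 CPM, a log2 change of 7.12 (SE 0.04) that was 3.31 above that of WT (SE 0.04, adjusted p = 4.8e-45 by edgeR). In all 3, both unstimulated HZ libraries lay below every unstimulated WT and KO library. *Egr4* had 0.0288 and 0.273 CPM before and 66.6 and 66.9 CPM after in HZ, against 12.5 and 10.1 and then 248 and 256 CPM in WT. The orphan nuclear receptor *Nr4a1* went from 32.4 and 30.8 to 6231 and 6389 CPM, a log2 change of 7.64 (SE 0.03), with 4.40 in WT and 5.88 in KO. *Atf3*, a stress-induced repressor of the ATF family, went from 3.28 and 2.82 to 1533 and 1548 CPM. Its unstimulated values were 31.5 and 27.3 CPM in WT and 37.2 and 40.9 CPM in KO, and its HZ response was larger by 3.80 than in WT and by 3.72 than in KO. *Ier3* was an exception, with log2 changes of 2.75 in HZ, 2.59 in WT and 2.65 in KO. *Klf2*, a factor linked to quiescence, rose by 2.52 in HZ and stood at 31.8 and 33.7 CPM before and 185 and 190 CPM after. In WT *Klf2* went from 88.8 and 90.6 to 70.4 and 73.0 CPM. *Klf10* was the member that fell, by 1.61 in HZ.

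**Figure D2:**
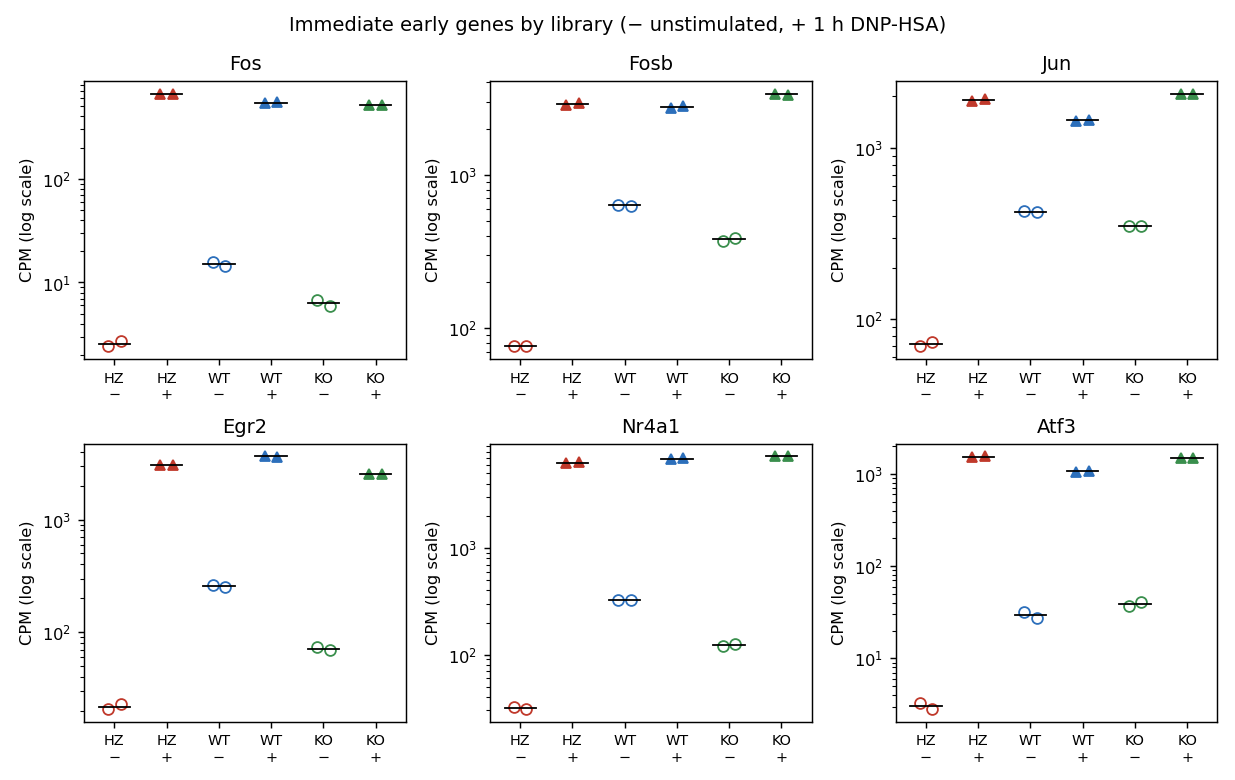
CPM on a log axis of 6 immediate early genes in the 12 libraries, by genotype, with open circles unstimulated, filled triangles stimulated and black bars the mean of 2 libraries. In each panel the lowest points are the 2 unstimulated HZ libraries, and the stimulated libraries of the 3 genotypes lie close together, as for *Fos* at 511 to 662 CPM.

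Secreted mediators rose in all 3 genotypes. Of 29 cytokines and growth factors tested, 23 rose and 2 fell in HZ, with a median log2 change of 3.50. In WT 21 rose and in KO 23, with medians of 3.71 and 3.95. Their summed level went from 1345 and 1366 to 18649 and 19153 CPM in HZ, a ratio of 13.9 that compares with 12.3 in WT and 14.3 in KO. *Lif*, of the IL-6 family, rose from 97.4 and 96.5 to 5088 and 5176 CPM. *Il6* rose from 29.1 and 30.7 to 1377 and 1372 CPM, a log2 change of 5.52 (SE 0.04) against 4.51 in WT. *Il6* reached 1330 and 1329 CPM in stimulated WT, from 56.5 and 60.3 CPM. *Il13*, a type 2 cytokine, rose from 7.92 and 9.46 to 933 and 1001 CPM. *Osm* rose from 69.3 and 67.4 to 1652 and 1708 CPM. *Csf1*, the macrophage growth factor, rose by 3.27 (SE 0.02) from 287 and 291 to 2783 and 2807 CPM, and its response minus that of KO was -0.82 (SE 0.03, adjusted p = 2.0e-25 by edgeR), short of 2-fold. At an adjusted p alone, 20.2% of all genes had a smaller response in HZ than in KO. Of the 29 cytokine genes, 1 in place of 2 was called lower without unstimulated HZ replicate 1 and 0 without stimulated HZ replicate 2.

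Of 15 chemokine genes tested, 10 rose and 3 fell in HZ, against 9 that rose and none that fell in each of WT and KO. *Ccl3* rose from 12.5 and 13.6 to 1921 and 2023 CPM and *Ccl4* from 8.21 and 11.6 to 1389 and 1463 CPM. Both attract leukocytes. Unstimulated WT libraries held more of both, at 90.6 and 91.0 CPM of *Ccl3* and 78.2 and 80.5 CPM of *Ccl4*, and stimulated WT libraries held 3156 and 3263 and 2438 and 2498 CPM. *Ccl2* and *Ccl7*, monocyte attractants, reached 3712 and 3896 and 3325 and 3447 CPM in HZ from 412 and 427 and from 55.5 and 61.6 CPM. *Ccl1* rose from 0.950 and 1.00 to 50.9 and 52.4 CPM. Of the 3 chemokines that fell, *Cxcl16* went from 2.94 and 3.31 to 0.609 and 1.08 CPM in HZ, and its log2 change was -1.89 (SE 0.42, adjusted p = 0.00011 by edgeR). The HZ response of *Cxcl16* minus that of WT was -2.33, and minus that of KO -2.39.

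*Hdc*, the histidine decarboxylase that makes histamine, rose less in HZ than in either other genotype. It went from 114 and 104 to 440 and 432 CPM in HZ, 3.99-fold, from 131 and 122 to 1116 and 1106 CPM in WT, 8.79-fold, and from 16.9 and 17.1 to 316 and 290 CPM in KO, 17.8-fold. The HZ response differed from that of WT by -1.14 (SE 0.05, adjusted p = 7.4e-23 by edgeR) and from that of KO by -2.16 (SE 0.06, adjusted p = 1.2e-30 by edgeR) on the log2 scale. Of 33 histamine, protease and granule genes tested, *Hdc* and the monoamine oxidase gene *Maoa* rose and *Ndst2*, *Slc6a4* and *Prss34* fell. These shares, 6.06% and 9.09%, were near the 7.02% and 7.28% of all genes. Without unstimulated HZ replicate 1, 1 of the 33 was called lower. *Ndst2*, an enzyme of heparin synthesis, went from 969 and 969 to 453 and 447 CPM. Among 40 genes of the IgE receptor and its proximal signalling none rose and 2 fell, with 1 called without unstimulated HZ replicate 1. The share of the 40 that fell was 5%, against 7.28% of all genes. Of 36 genes of the exocytosis machinery 1 fell (2.78%), the vesicle protein gene *Syngr1*, from 44.3 and 47.5 to 18.8 and 21.5 CPM. The exocyst and adhesion genes *Exoc3l* (-0.66, SE 0.13), *Cadm1* (-0.43, SE 0.05) and *Vcl* (-0.15, SE 0.04) did not reach the 2-fold threshold.

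Genes that dampen the signal rose with it. Of 21 feedback inhibitors of MAP kinase signalling, 13 rose and 2 fell in WT (median log2 change 1.53). In KO 12 rose and 2 fell (median 1.45). In HZ, where 7.02% of all genes rose and 7.28% fell, 13 of the 21 rose and 3 fell, with a median of 2.77. Without stimulated HZ replicate 2, 1 of these was called lower. *Dusp1*, a phosphatase of MAP kinases, rose from 5.61 and 4.25 to 426 and 447 CPM. *Dusp6*, which acts on ERK, rose from 33.4 and 35.0 to 347 and 340 CPM, and its response exceeded that of WT by 1.08 (SE 0.05, adjusted p = 1.2e-21 by edgeR). *Rgs1* and *Rgs2*, which switch off G proteins, rose by 3.53 and 2.50. Of 20 SOCS and cytokine mRNA decay genes, 10 rose in HZ, 10 in WT and 11 in KO, among them *Cish* (2.37, SE 0.03) and *Zfp36l1* (2.44, SE 0.04). Of 25 NF-κB genes, 6 rose in HZ, 6 in WT and 9 in KO. *Nfkbid* and *Nfkbiz*, of the IκB family but not simply inhibitors, led, reaching 2180 and 2201 and 1659 and 1665 CPM. *Rcan1*, the feedback inhibitor of calcineurin, rose by 6.11 (SE 0.03) in HZ, 5.74 in WT and 5.76 in KO.

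**Figure D3:**
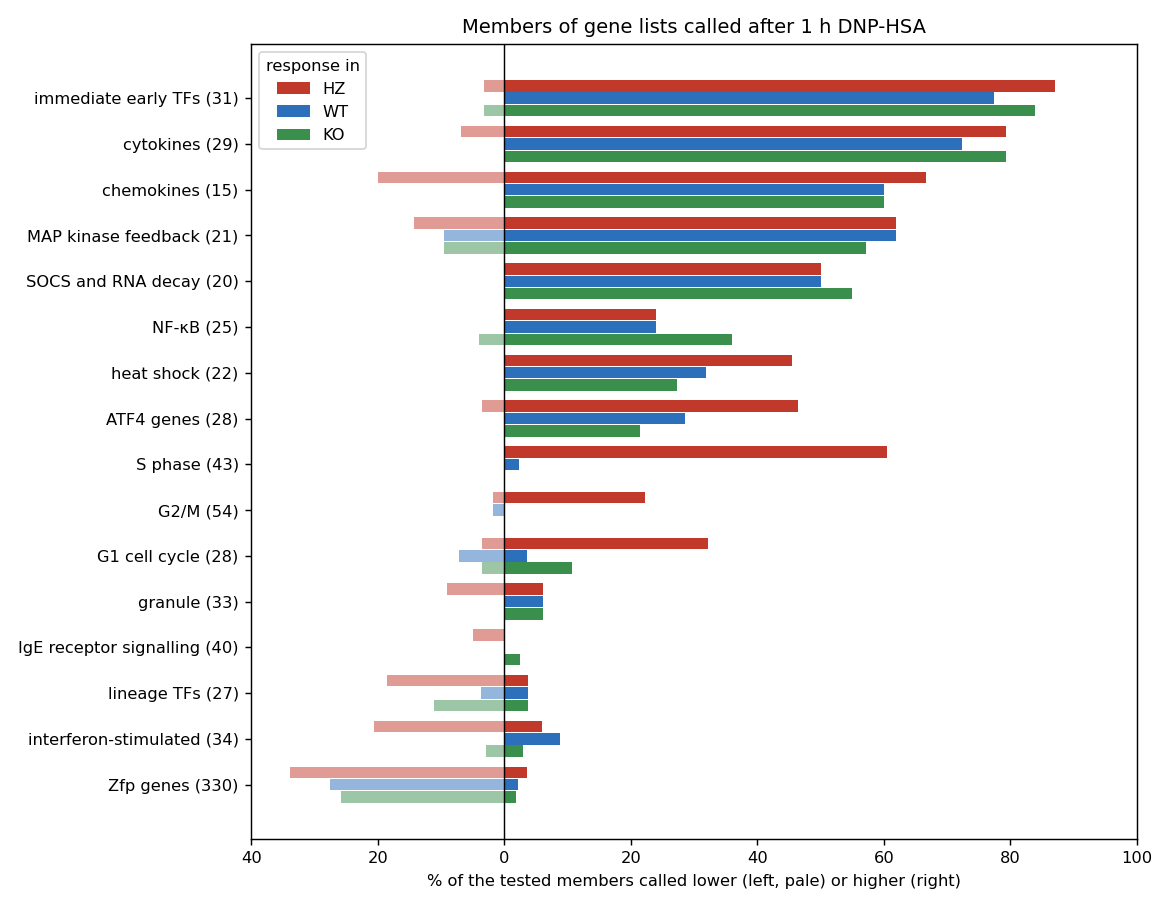
Share of the tested members of 16 gene lists called higher (right, full colour) or lower (left, pale) after stimulation in HZ, WT and KO, with the number of members tested in parentheses. The S-phase list stands out, with 26 of 43 members higher in HZ, 1 in WT and 0 in KO, whereas the immediate early list has 27 of 31 members higher in HZ, 24 in WT and 26 in KO. To the left, 3 of 15 chemokines were lower in HZ and 0 in WT and KO.

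Genes of DNA replication and mitosis rose in HZ, with few calls in WT and KO. The S-phase list holds the replicative helicase, nucleotide synthesis and origin licensing genes that are transcribed as cells enter replication. Of its 43 genes, 26 rose and none fell in HZ, with a median log2 change of 1.11. At an adjusted p below 0.05 without the fold threshold, 39 of the 43 were higher and none lower (edgeR), where 32.9% of all genes were higher. In WT 1 rose and in KO 0, with medians of -0.06 and -0.07. In WT 6 and in KO 5 were higher at an adjusted p below 0.05 alone (22.4% and 20.4% of all genes, edgeR) and 16 and 14 were lower, and DESeq2 called 26 higher and 0 lower in HZ. Of 54 G2/M genes, 12 rose and 1 fell in HZ (median 0.69), none rose and 1 fell in WT (median -0.34), and none rose or fell in KO (median -0.22). At an adjusted p below 0.05 alone (edgeR), 46 of the G2/M genes were higher and 4 lower in HZ. In WT 3 were higher and 42 lower, and in KO 5 were higher and 28 lower, where 22.9% and 20.5% of all genes were lower. With scaling by library totals, 18 of the S-phase and 4 of the G2/M genes rose in HZ. Tests of the difference gave 29 S-phase genes with a larger response in HZ than in WT (3.96% of all genes were) and 29 with a larger response than in KO (3.70%), and 28 passed both. For the G2/M list the counts were 32, 27 and 25. The G2/M gene that fell in HZ was not called without unstimulated HZ replicate 1 or without stimulated HZ replicate 2.

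Summed over the S-phase list, the level was 1927 and 1921 CPM in unstimulated and 3875 and 3900 CPM in stimulated HZ libraries. It was 3150 and 3163 CPM before and 3369 and 3360 CPM after in WT, and 2610 and 2631 CPM before and 2748 and 2779 CPM after in KO. The unstimulated HZ sum was 61.0% of that of WT and 73.4% of that of KO, and the stimulated HZ sum was 116% of WT and 141% of KO. For the G2/M list the HZ sums were 2315 and 2288 CPM before and 3522 and 3480 CPM after, against 4868 and 4902 CPM and 4066 and 4053 CPM in WT. KO held 2620 and 2579 CPM of the G2/M list before and 2337 and 2343 CPM after, so the unstimulated HZ sum was 88.5% of KO and 47.1% of WT. The order of the genotypes therefore differed between the lists and the conditions.

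**Figure D4:**
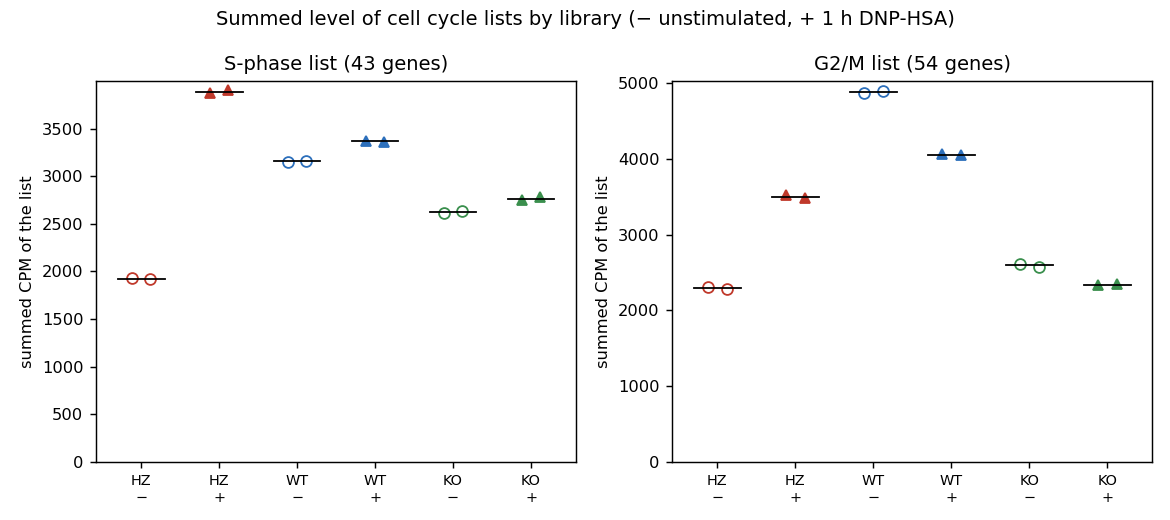
Summed CPM of the 43 genes of the S-phase list (left) and the 54 genes of the G2/M list (right) in each of the 12 libraries, with open circles unstimulated, filled triangles stimulated and black bars the mean of 2 libraries, from 0. The HZ sums go from 1927 and 1921 to 3875 and 3900 CPM on the left and from 2315 and 2288 to 3522 and 3480 CPM on the right, while the WT and KO sums move less, and downward for G2/M.

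Promoters of the minichromosome maintenance genes *Mcm5* and *Mcm6* and of the licensing factor gene *Cdc6* (the last named after its values had been seen) are shown because these genes rose together in HZ and carry the letters of the E2F site, the element known from replication genes. RefSeq sequence of the 250 bases before the start of transcription (GRCm38.p6, read 5′ to 3′ on the gene's strand) was searched for TTTCCCGC and TTTGGCGC on both strands, and the matches are in capitals. *Mcm5* lies on the plus strand at chr8:75109259-75109508, *Mcm6* on the minus strand at chr1:128359706-128359955 and *Cdc6* on the plus strand at chr11:98907901-98908150.
Mcm5: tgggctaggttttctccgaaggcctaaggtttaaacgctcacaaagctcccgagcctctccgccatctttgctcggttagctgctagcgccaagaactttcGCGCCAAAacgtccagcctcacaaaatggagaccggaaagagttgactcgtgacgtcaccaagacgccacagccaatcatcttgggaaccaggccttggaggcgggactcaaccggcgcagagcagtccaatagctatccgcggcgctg
Mcm6: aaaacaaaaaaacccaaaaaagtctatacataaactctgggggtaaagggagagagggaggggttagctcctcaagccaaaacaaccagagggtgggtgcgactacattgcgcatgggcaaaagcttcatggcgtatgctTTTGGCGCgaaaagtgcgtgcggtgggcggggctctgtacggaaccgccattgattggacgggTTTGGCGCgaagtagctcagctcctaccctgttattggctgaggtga
Cdc6: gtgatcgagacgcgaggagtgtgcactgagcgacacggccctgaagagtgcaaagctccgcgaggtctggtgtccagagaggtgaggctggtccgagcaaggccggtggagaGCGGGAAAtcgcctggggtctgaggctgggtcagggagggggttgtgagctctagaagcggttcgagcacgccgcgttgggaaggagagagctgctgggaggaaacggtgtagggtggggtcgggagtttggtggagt
The matches begin 149 bases before the start in *Mcm5*, 110 and 47 in *Mcm6* and 138 in *Cdc6*. Of the 26 S-phase genes that rose, 18 had a promoter in the table and 7 of these (38.9%) held a match, as did 9 of 31 (29.0%) of the S-phase genes tested and 259 of 9828 (2.64%) of all genes tested with a promoter. Among the 20 immediate early genes that rose and had a promoter, 1 held a match. A match of letters is not a binding site. No CArG box, the SRF element, was found in the 250 bases of those 20 promoters, and 1.10% of all 9828 held it. At so low a share most sets of 20 promoters would hold none, and sites farther away were not searched. The absence therefore says nothing about SRF at these genes.

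*Mcm5* rose from 73.7 and 73.9 to 187 and 190 CPM in HZ, a log2 change of 1.35 (SE 0.04, adjusted p = 5.3e-31 by edgeR), and stayed between 141 and 147 CPM in the 4 WT libraries and between 118 and 128 CPM in the 4 KO libraries. *Mcm6* rose from 160 and 158 to 326 and 328 CPM and *Cdc6* from 7.83 and 6.58 to 21.6 and 21.8 CPM. *Mcm4* and *Mcm7* rose by 1.24 (SE 0.04) and 1.34 (SE 0.04). In each of these genes both stimulated HZ libraries were above, and both unstimulated HZ libraries below, every WT and KO library. *Rrm1*, the large subunit of ribonucleotide reductase, rose from 100 and 98.3 to 229 and 216 CPM. Its partner *Rrm2*, named after its values had been seen, went from 35.7 and 37.6 to 161 and 162 CPM, and the HZ response exceeded that of WT by 2.01 (SE 0.07, adjusted p = 5.6e-29 by edgeR). *Pcna*, the sliding clamp, rose in WT as well, by 1.13 against 1.62 in HZ. Among mitotic genes, *Top2a* went from 105 and 103 to 229 and 229 CPM in HZ and from 332 and 343 to 272 and 270 CPM in WT. The mitotic kinase gene *Cdk1* went from 20.1 and 19.0 to 43.9 and 41.4 CPM in HZ.

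Of 28 G1 regulators tested, 9 rose and 1 fell in HZ, against 1 that rose and 2 that fell in WT and 3 and 1 in KO. *E2f1*, which drives replication genes, rose from 43.8 and 48.1 to 109 and 108 CPM and *E2f7*, a repressor of the same family, from 7.49 and 7.70 to 18.6 and 18.2 CPM. The phosphatase gene *Cdc25a* rose by 1.05 (SE 0.12). *Cdkn1a*, the p21 inhibitor, rose by 1.84 in HZ, 1.49 in WT and 1.60 in KO. *Cdkn1b*, the p27 inhibitor associated with resting cells, fell from 95.5 and 89.4 to 19.0 and 18.1 CPM in HZ, a log2 change of -2.32 (SE 0.07, adjusted p = 1.4e-31 by edgeR). Unstimulated WT held 50.04 and 52.6 CPM of *Cdkn1b* and stimulated WT 17.7 and 17.8 CPM. KEGG pathways of the deposited table that were added after their values had been seen had 17 of 35 DNA replication genes, 8 of 18 one-carbon folate genes, 11 of 51 Fanconi anemia genes and 10 of 73 ribosome biogenesis genes higher in HZ, against 1, 0, 0 and 0 in WT and none in KO. None of 45 proteasome genes rose 2-fold in HZ, WT or KO. At an adjusted p below 0.05 alone (edgeR), 38 of them were higher in HZ, 30 in WT and 18 in KO. Of the 73 ribosome biogenesis genes, 57 were higher in HZ, 35 in WT and 23 in KO at that adjusted p. The shares of all genes were 32.9%, 22.4% and 20.4%.

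Of 22 heat shock genes, 10 rose in HZ, 7 in WT and 6 in KO. *Hspa5*, the chaperone of the endoplasmic reticulum, rose from 693 and 679 to 3282 and 3280 CPM in HZ and from 1409 and 1379 to 3015 and 3009 CPM in WT, and the HZ response was larger than both others by 1.15 and 1.21 (SE 0.03 each). *Dnajb1* rose by 4.60 in HZ, 2.89 in WT and 2.90 in KO. *Hsp90aa1* rose by 1.48 from 400 and 401 CPM. Of 28 genes of the ATF4 integrated stress response, 13 rose and 1 fell in HZ, 8 rose in WT and 6 in KO. *Atf4* itself rose by 1.39, the amino acid carrier gene *Slc7a5* by 1.40, and the mitochondrial folate enzyme genes *Mthfd2* and *Shmt2* by 1.25 and 1.26. *Shmt2* changed by 0.33 in WT and 0.21 in KO.

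Survival and death genes moved in both directions. Of 24 BCL2 family and p53 target genes, 9 rose and 3 fell in HZ, 7 and 2 in WT, and 7 and 2 in KO. The antiapoptotic *Mcl1* rose from 328 and 337 to 726 and 730 CPM. The proapoptotic *Bbc3*, which encodes PUMA, fell from 160 and 172 to 21.3 and 20.03 CPM, a log2 change of -3.00 (SE 0.06, adjusted p = 2.8e-39 by edgeR) and a difference of -1.43 from the WT response. The proapoptotic *Pmaip1* and *Bcl2l11* rose by 2.55 and 1.56.

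By the same rule as for the increases, the largest decreases were in *Fbxo32*, *Zfp763*, *Gm46139*, *Rubcnl*, *Zfp760*, *Frat2*, *Gm12258*, *Zkscan14*, *Otud1* and *Inka1*. *Fbxo32*, a ubiquitin ligase known from muscle wasting, went from 9.93 and 8.31 to 0.457 and 0.541 CPM, a log2 change of -4.19 (SE 0.33, adjusted p = 1.9e-15 by edgeR). In WT *Fbxo32* stood at 2.26 and 2.00 CPM before, and the HZ response differed from that of WT by -1.46 and from that of KO by -3.17. *Inka1*, an inhibitor of the kinase PAK4, went from 30.8 and 29.3 to 3.11 and 3.52 CPM. *Frat2*, a WNT pathway activator, went from 10.6 and 10.3 to 1.16 and 0.744 CPM, and the difference of its response from that of WT did not pass the test (difference -0.02, SE 0.46, adjusted p = 0.98 by edgeR). Zinc finger genes named *Zfp* with a number were common among the decreases. Of 330 tested, 112 fell and 12 rose in HZ, 12.6% of all genes that fell, where they made up 2.70% of the genes tested. In WT 91 fell and in KO 85, which were 24.4% and 24.1% of the genes that fell there. *Zfp763* went from 5.47 and 5.31 to 0.305 and 0.406 CPM and *Zfp760* from 15.3 and 13.9 to 1.19 and 1.18 CPM.

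Of 27 transcription factors of the blood lineages, 5 fell and 1 rose in HZ, against 1 and 1 in WT and 3 and 1 in KO. *Gfi1b*, a transcriptional repressor that acts in the megakaryocyte and erythroid lineages, went from 43.7 and 41.3 to 9.90 and 10.3 CPM in HZ. In WT it went from 11.6 and 9.06 to 7.10 and 5.98 CPM. *Lyl1* fell by 1.08 and *Hes1*, a NOTCH target, changed by -1.503. *Cebpb*, a partner of inflammatory gene transcription, rose from 42.7 and 45.9 to 234 and 242 CPM. *Gata2* and *Mitf*, the factors that define mast cells, changed by -0.60 (SE 0.02) and -0.11 on the log2 scale and were not called. The SRF coactivator *Mrtfa* fell from 148 and 150 to 45.9 and 48.6 CPM. Of 20 ternary complex factor, SRF and ETS genes, 2 rose (*Ets2* and *Etv4*) and 1 fell in HZ. These were 10% and 5%, against 7.02% and 7.28% of all genes. Of 26 SRF-regulated cytoskeletal genes, 2 rose, *Ccn1* and *Fhl2*, and 1 was called without stimulated HZ replicate 2. The cytoskeletal genes that rose were 7.69% of the 26, near the 7.02% of all genes. A list of genes near ternary complex factor binding, taken from the supplement of the study, had 13 of 68 members higher and 1 lower in HZ, 11 and 1 in WT and 12 and 2 in KO. That list is not independent evidence of direction.

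Of 33 KIT and cytokine receptor genes none rose and 2 fell, *Il18r1* from 176 and 165 to 76.3 and 71.4 CPM and *Tnfrsf4* from 1.73 and 1.73 to 0.945 and 0.541 CPM, with 1 called without stimulated HZ replicate 2. The share of the 33 that fell was 6.06%, against 7.28% of all genes. In WT 3 of the 33 rose and in KO 3. Of 34 G protein-coupled receptors, 8 rose and 5 fell in HZ, 8 and 1 in WT, and 8 and 2 in KO. With scaling by library totals 5 of them rose and 7 fell in HZ. The adenosine receptor genes *Adora3* and *Adora2b* rose to 321 and 320 and to 159 and 157 CPM, by 1.32 and 1.46, and by 1.49 and 1.27 in WT. Of 15 genes of prostaglandin and leukotriene synthesis, *Ptgs2* and *Pla2g4c* rose in HZ (13.3%), and 1 gene rose in each of WT and KO. Of 24 calcium and NFAT genes, 3 rose in HZ (12.5%), and 1 with scaling by library totals, against 1 each in WT and KO. Of 22 NRF2 genes 3 rose in HZ (13.6%), 4 in WT and 5 in KO. Of all genes, 7.02% rose in HZ, 3.71% in WT and 3.73% in KO. The NRF2 genes that rose in HZ were led by *Srxn1*, which reduces oxidized peroxiredoxin and went from 262 and 261 to 2933 and 3002 CPM. In the cholesterol list, none of 29 rose in HZ, while 4 genes rose in WT. The efflux genes *Abcg1* and *Abca1* fell in HZ, by 1.41 and 1.92 (6.90% of the list, against 7.28% of all genes). None of 18 antigen presentation genes was called in HZ by edgeR, with 1 higher and 10 lower at an adjusted p below 0.05 alone (32.9% and 31.6% of all genes).

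Responses that differed from both WT and KO were counted directly. The HZ response was larger than that of WT in 484 genes and smaller in 247 (2.02%), and larger than that of KO in 452 and smaller in 284 (2.33%). It was larger than both in 325 genes (2.66%) and smaller than both in 139 (1.14%). Of the 325, 248 were called higher in HZ, 216 of them in no other genotype and 32 in all 3. Before stimulation, 234 of the 325 were lower in HZ than in WT (5.32% of all genes were) and 70 lower than in KO (1.29%). After stimulation, 11 were higher in HZ than in WT (1.96% of all genes were) and 70 higher than in KO (1.37%). Of the 139, 118 fell in HZ, 103 of them in HZ alone. Before stimulation 71 of these 139 were higher in HZ than in WT (3.83% of all genes were) and 68 higher than in KO (2.06%). After stimulation 31 were lower than in WT (2.55% of all genes were) and 16 lower than in KO (0.729%). Since the difference and the unstimulated contrast share libraries, these counts describe where the levels stood and are no separate evidence.

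Among the genes with the largest such differences, *Atf3* and *Egr4* are described above. *Ccn1*, a secreted matrix protein, had no count in unstimulated HZ and 12.04 and 10.5 CPM in stimulated HZ, below the 19.9 and 21.1 CPM of stimulated WT, so its larger fitted response rests on counts of 0. *Usp17ld*, a deubiquitinase gene of a multigene family, went from 0.346 and 0.182 to 16.1 and 15.9 CPM in HZ and from 3.86 and 2.57 to 13.9 and 18.1 CPM in WT. *Pcp4l1* reached 0.914 and 0.609 CPM and *Epb41l1* 1.40 and 0.947 CPM in stimulated HZ, both below every WT library. *Entpd4b* rests on 1 library, with 0.884 and 7.04 CPM in stimulated HZ, and without replicate 2 its log2 change was 0.31 in place of 2.46 and no longer called (adjusted p = 0.73 by edgeR).

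*Gbp9*, of the interferon-inducible guanylate-binding proteins, went from 25.7 and 26.96 to 3.78 and 3.55 CPM in HZ, and ranged from 2.59 to 6.50 CPM in the WT and KO libraries. Its relatives *Gbp4* and *Gbp6*, named after their values had been seen, went from 90.8 and 91.1 to 18.4 and 18.1 CPM and from 60.6 and 63.8 to 18.9 and 16.9 CPM. Other interferon-stimulated genes were mixed, with 7 of 34 lower and 2 higher in HZ. Without stimulated HZ replicate 1, 4 in place of 7 were lower. *Gpx3*, a secreted glutathione peroxidase, went from 9.96 and 9.61 to 1.37 and 1.39 CPM in HZ but stayed at 9.10 to 10.3 CPM in WT, and its response minus that of WT was -2.81 (SE 0.26, adjusted p = 1.7e-12 by edgeR). *Slc6a12*, a betaine and GABA carrier gene, went from 7.89 and 8.46 to 1.98 and 2.67 CPM. *Greb1* went from 4.23 and 3.52 to 1.01 and 0.778 CPM and *Fam177a2* from 4.03 and 6.34 to 1.25 and 0.812 CPM. *Rubcnl*, an autophagy regulator, went from 5.27 and 6.67 to 0.518 and 0.440 CPM. *Pik3ip1*, an inhibitor of phosphoinositide 3-kinase that was also named after its values had been seen, went from 134 and 137 to 20.4 and 19.9 CPM in HZ and from 42.8 and 45.9 to 17.8 and 16.8 CPM in WT. For *Pik3ip1*, as for *Gbp4* and *Cdkn1b*, the genotypes lay far apart before stimulation and close together after it.

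**Figure D5:**
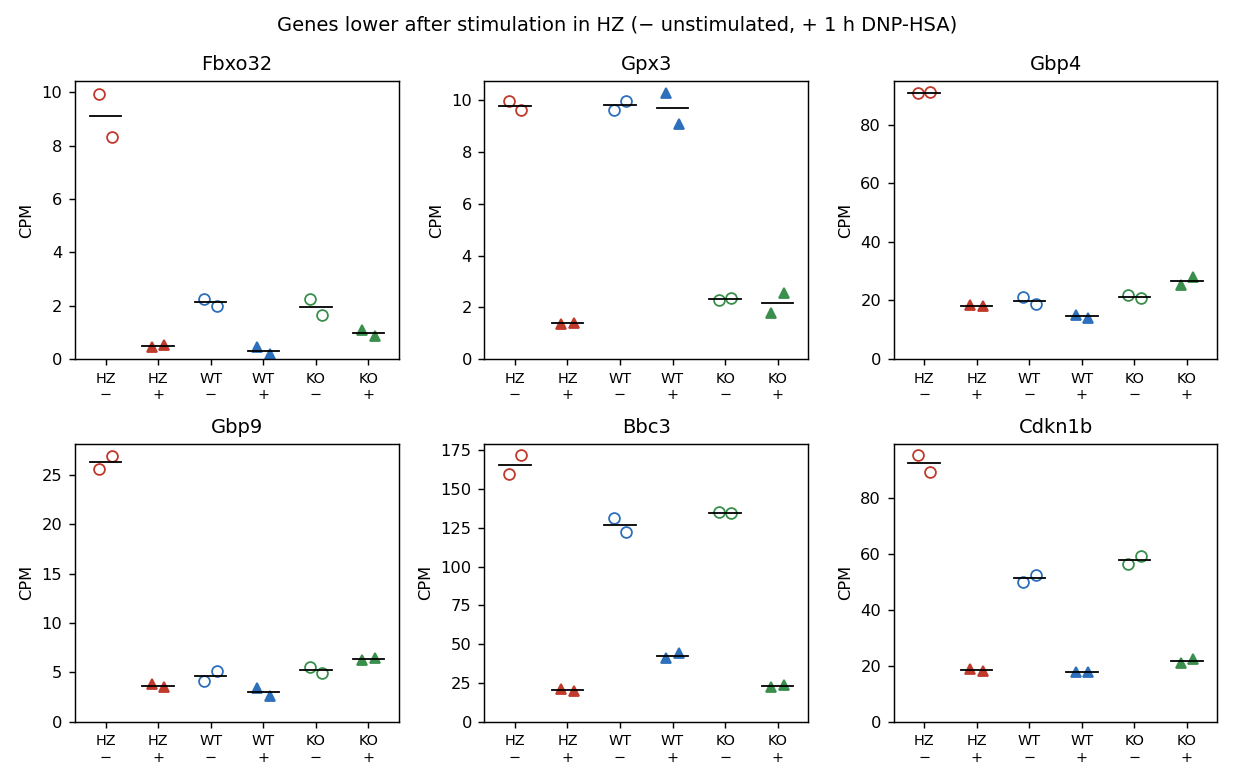
CPM of 6 genes that fell in HZ, in the 12 libraries from 0, with open circles unstimulated, filled triangles stimulated and black bars the mean of 2 libraries. *Gbp4* and *Gbp9* are highest in the 2 unstimulated HZ libraries, *Gpx3* fell in HZ alone, and *Bbc3* and *Cdkn1b* fell in all 3 genotypes.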

How the data were processed

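RNA-seq of 12 BMMC libraries was analysed from the deposited table of raw counts per gene, with FPKM columns used only for an alternative. Per the labels, the authors' processing used fastp, HISAT2 and HTSeq on GRCm39. Their versions, the annotation and the strand setting are not given in the sources used here, so overlapping and near-identical genes are uncertain. Counts were not normalized by the authors. The deposited FPKM values are per gene length and depth. Deposited annotation columns gave gene names and KEGG pathways.

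Genes were kept by filterByExpr, scaled by TMM and fitted with 1 mean per group over all 12 libraries in edgeR 4.0.16 (R 4.3.3, glmQLFit and glmQLFTest), with contrasts for the HZ response and for its difference from the WT and KO responses. Adjusted p-values are Benjamini-Hochberg over 12208 genes. The common biological coefficient of variation was 4.01%. Alternatives used DESeq2 1.42.0, limma 3.58.1, other scalings, filters and thresholds, and left out each library. Scripts were tested on simulated data. Named genes were the 10 called genes of largest change in each direction of the HZ response with at least 100 counts in the higher group and no overlap of libraries, the 8 genes differing most from both WT and KO in each direction, genes the study measured, and up to 6 called members of each list with the highest counts. *Fos*, *Fosb*, *Jun*, *Klf2*, *Klf10*, *Rrm2*, *Cdc6*, *Gbp4*, *Gbp6* and *Pik3ip1* were named after their values had been seen, and *Gata2*, *Mitf* and markers for their role. The members and lists were chosen with earlier results of these data known. Bounds on folds use a floor of 3 counts over a group and cover counting error only. The genes called in the IgE receptor list are not reported by name here.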

Additional observations from a re-analysis of the deposited data

Results flagged for a closer look

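The results below passed a test of the difference between the HZ response and that of another genotype (adjusted p below 0.05 and at least 2-fold, by the quasi-likelihood F test of edgeR, adjusted by the Benjamini-Hochberg method). With 2 libraries a group, single samples were not tested as outliers. The HZ response was larger than the WT response in 484 genes and smaller in 247, larger than the KO response in 452 and smaller in 284, and larger than both in 325 and smaller than both in 139.

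Among named genes, the log2 response in HZ minus that in WT was 6.07 in *Ccn1*, 5.00 in *Olr1*, 4.30 in *Egr4*, 4.30 in *Entpd4b*, 3.80 in *Atf3*, 3.57 in *Usp17ld*, 3.03 in *Pcp4l1* and 2.73 in *Epb41l1*. The values for *Ccn1* and *Olr1* rest on 0 and 1 counts in unstimulated HZ, and that for *Entpd4b* on 1 library. Among mediators it was 2.22 in *Ccl4*, 2.10 in *Ccl3*, 2.10 in *Ptgs2*, 1.41 in *Tnf*, 1.01 in *Il6* and -1.14 in *Hdc*. Among genes that fell in HZ it was -3.81 in *Fam177a2*, -2.81 in *Gpx3*, -2.54 in *Greb1*, -2.49 in *Gm46139*, -2.44 in *Slc6a12*, -2.33 in *Cxcl16*, -2.31 in *Rubcnl*, -2.22 in *Gbp9*, -1.46 in *Fbxo32*, -1.19 in *Zkscan14* and -1.06 in *Inka1*.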

How the results depend on the processing

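None of the 44 genes refitted singly under the alternatives changed direction. They are the genes of the largest changes, those differing most from WT and KO, and those the study measured. The other genes named were not refitted singly. Sizes among the 44 did change. Under alternatives that left out no HZ library, the weakest log2 change in HZ was below 2-fold in several called genes. It was 0.07 in *Epb41l1*, 0.47 in *Pcp4l1*, 0.67 in *Entpd4b*, -0.42 in *Greb1*, -0.62 in *Gm46139*, -0.96 in *Fam177a2* and -0.9987 in *Zfp760*. DESeq2 called 842 genes higher and 883 lower in HZ, of which 838 and 870 were among the edgeR calls, and a fit of the HZ libraries alone called 808 and 881. Leaving out 1 library at a time gave 833 to 841 higher and 808 to 826 lower, 310 to 344 larger than both and 119 to 138 smaller than both. Similar totals do not mean the same genes, and each fit without 1 HZ library kept fewer calls of the full fit than DESeq2 did. With library totals as scaling, 1351 genes were lower. In that scaling 4 IgE receptor, 2 exocytosis, 5 cytokine receptor and 2 SRF cytoskeletal genes were lower and 1 SRF cytoskeletal gene higher in HZ, in place of 2, 1, 2, 0 and 2, and 4 in place of 1 of the genes near ternary complex factor binding were lower. Limma on log2(FPKM + 1) called 298 higher and 470 lower in HZ, 283 larger and 67 smaller than WT, 217 larger and 65 smaller than KO, and 174 and 42 against both. Without a filter these were 298, 472, 283, 69, 217, 65, 174 and 42. With log2(FPKM + 0.1), 440 were higher and 900 lower in HZ, and 145, 146 and 87 were smaller than WT, KO and both. By its construction a pseudocount of 1 shrinks the change of low genes. No TMM scaling was applied to the FPKM, and with library totals, too, more genes were lower than higher. The part of scaling in the FPKM counts was not tested. Without the fold threshold the counts were 4011 higher and 3853 lower, 2429 larger and 2276 smaller than WT, 2602 and 2465 against KO, and 1945 and 1739 against both. At 1.5-fold they were 1766, 1753, 1025, 657, 1044, 830, 767 and 412. Stimulated and unstimulated libraries carry the same replicate numbers, and whether these mark a shared mouse or culture is not known. Deviations of same-numbered HZ libraries correlated at 0.0811 over 9161 genes, and -0.0345 in WT and -0.0306 in KO. With 2 libraries a group, these values cannot show whether the libraries are paired. With the replicate number as a block, 845 genes were higher and 874 lower in HZ, and every other count stayed within 1.5 times. With 2 libraries a group, genes of a few counts are the least certain.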
